A study of Mus musculus with 9 samples.

Results

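The transcripts of 42 lysosomal genes were followed through oxygen-glucose deprivation (OGD) and P300 inhibition in BV2 cells. The genes were taken by symbol from a table of 54532 genes, and the rule that chose them uses no measured value. Earlier results of these data were known when they were chosen. They make up a cathepsin class of 11 genes that includes legumain, 7 membrane proteins, 8 glycosidases, 5 activators and other luminal proteins, 8 subunits of the proton pump and 3 transcription factors of the TFEB family. All 42 passed the filter on low values, *Atp6v0d2* only through the OGD group.

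BV2 is an immortalized mouse microglial line, and 3 groups of 3 libraries were sequenced from it. Control cells stayed in complete medium with 10% serum, and OGD cells were moved to low-glucose medium with 4% serum under 4% oxygen. OGD + A-485 cells had the same medium and oxygen together with A-485. This compound inhibits the acetyltransferase P300 and its relative CBP. The study's text gives 24 h, 50 μM and addition of A-485 when OGD began for experiments that preceded the sequencing. It does not state them again for the libraries. Glucose, serum and oxygen changed together, and no library used here held A-485 without OGD. The question was how P300 inhibition changes the transcripts of deprived microglia.

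Lysosomes digest the proteins, glycans and lipids that endocytosis, phagocytosis and autophagy deliver. Proteases and glycosidases do this in a lumen that the V-ATPase proton pump keeps acidic, while membrane proteins shield the limiting membrane and move ions and products across it. TFEB, TFE3 and MITF bind E-box-like sequences near the starts of many lysosomal genes, and mTORC1 holds TFEB and TFE3 in the cytosol when nutrients are plentiful. Microglia, the phagocytes of the brain, use this system to clear debris.

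The E-box of the TFEB family is CACGTG, and its extended form is TCACGTGA. Both read the same on either strand, and every TCACGTGA holds a CACGTG. RefSeq windows of build GRCm38.p6 ran from 250 bases before to 50 bases after the gene start and were found for 35 of the 42 genes. CACGTG stood in 12 of the 35 (34.3%) and in 8.09% of 27025 genes, and TCACGTGA in 6 of the 35 (17.1%) and in 1.12% of genes. Unlike the 42, the 27025 genes were not limited to those that passed the filter on low values, and the shares were not tested. The variant TCATGTGA, searched on both strands, stood in 5 of the 35 (14.3%), namely *Ctss*, *Gla*, *Grn*, *Tpp1* and *Ppt1*, and in 1.15% of genes. The 6 genes with TCACGTGA are shown over 100 bases because this is the sequence the family is known to bind. Capitals mark every TCACGTGA, and each line reads 5′ to 3′ on the strand of the gene.
Ctsa, chr2:164833714-164833813, plus strand: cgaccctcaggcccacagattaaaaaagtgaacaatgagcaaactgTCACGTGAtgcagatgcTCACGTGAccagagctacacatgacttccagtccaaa
Ctsd, chr7:142387873-142387972, minus strand: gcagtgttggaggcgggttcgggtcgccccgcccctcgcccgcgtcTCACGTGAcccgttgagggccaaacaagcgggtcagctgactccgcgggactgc
Mcoln1, chr8:3500427-3500526, plus strand: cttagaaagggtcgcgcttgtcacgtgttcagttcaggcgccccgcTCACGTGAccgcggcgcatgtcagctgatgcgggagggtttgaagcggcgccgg
Gla, chrX:134601156-134601255, minus strand: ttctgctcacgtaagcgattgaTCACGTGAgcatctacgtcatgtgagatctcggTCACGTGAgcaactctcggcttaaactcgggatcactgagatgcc
Atp6v0d1, chr8:105566015-105566114, minus strand: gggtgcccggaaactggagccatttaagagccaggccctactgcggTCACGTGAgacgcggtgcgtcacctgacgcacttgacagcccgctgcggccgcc
Atp6v1a, chr16:44139338-44139437, minus strand: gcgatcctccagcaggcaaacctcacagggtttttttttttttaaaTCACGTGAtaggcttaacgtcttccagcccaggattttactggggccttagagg
Counted from the RefSeq start of the window, the first match began at position -13 in *Ctsa*, -99 in *Ctsd*, -46 in *Mcoln1*, -228 in *Gla*, -4 in *Atp6v0d1* and -132 in *Atp6v1a*. In the deposited coordinates *Ctsa*, *Ctsd*, *Mcoln1* and *Atp6v1a* start further upstream, so their matches lie inside the gene as deposited. A match is a description of letters, and binding was not tested.

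The windows of the TFEB family genes are shown over 150 bases because this was the class in which every member was called in the A-485 comparison. None of the 3 motifs stood in these windows, which says only that these letters are not there.
Tfeb, chr17:47736937-47737086, plus strand: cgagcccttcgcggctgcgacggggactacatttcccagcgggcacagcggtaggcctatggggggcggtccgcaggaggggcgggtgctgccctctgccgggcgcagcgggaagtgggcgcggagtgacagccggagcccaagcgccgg
Tfe3, chrX:7762561-7762710, plus strand: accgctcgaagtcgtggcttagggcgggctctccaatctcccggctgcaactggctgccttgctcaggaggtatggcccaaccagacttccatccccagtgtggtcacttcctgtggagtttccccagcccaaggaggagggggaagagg
Mitf, chr6:97806958-97807107, plus strand: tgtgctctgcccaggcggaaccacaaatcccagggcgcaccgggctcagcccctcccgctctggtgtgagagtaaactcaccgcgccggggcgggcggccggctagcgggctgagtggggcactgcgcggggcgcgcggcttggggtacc

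The reads on genes ranged from 12681228 to 15594706 in control, from 12593250 to 14000875 under OGD and from 15126135 to 16091038 under OGD + A-485 libraries. The labels do not say whether the libraries came from separate cultures, so the p-values measure the spread between libraries, which may be technical. In bulk RNA, fewer cells of a type and less RNA per cell cannot be told apart. A set of 13 microglia and macrophage markers summed to 328 to 348 FPKM (fragments per kilobase of gene, scaled to depth) in control, 476 to 484 under OGD and 955 to 993 under OGD + A-485. Of these markers *P2ry12*, typical of resting brain microglia, was near 0 in every group. Markers of neurons, astrocytes, oligodendrocytes, fibroblasts, endothelium and epithelium each summed to at most 2.36 FPKM in any library.

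The level of the 42 lysosomal genes was 3751 ± 31.5 FPKM in control, 4269 ± 116 under OGD and 7993 ± 260 under OGD + A-485 (SD, n = 3 libraries). They made up 1.41% to 1.47% of the FPKM of protein-coding genes in control, 1.52% to 1.60% under OGD and 2.68% to 2.79% under OGD + A-485. The 3 groups did not overlap in this share. The summed microglia and macrophage markers moved in the same direction, and their part in the result was not tested.

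Calls required p under 0.01 before adjustment together with a log2 fold change beyond 0.5 in either direction, in limma fits to log2(FPKM + 0.1) of 16123 genes. A log2 fold change on this scale understates the change of low genes. With OGD, 8 of the 42 genes (19%) were called higher, where the background over all genes was 11.2%, and 0 were called lower, where it was 9.81%. At an unadjusted p under 0.05, limma put 24 higher (background 25.9%) and 4 lower (background 25.8%), the latter being *Ctsc*, *Gusb*, *Man2b1* and *Tfeb*. Under the p and fold rule, limma-voom on recovered reads called 9 higher (background 11.9%) and 0 lower (background 10.4%). At an adjusted p under 0.05 of any size, limma put 22 higher (52.4%, background 22.5%) and 3 lower (7.14%, background 22.8%). The median log2 fold change was 0.15, beside 0.01 over all genes.

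The response to A-485 under OGD was larger. Against OGD, 25 of the 42 genes (59.5%) were called higher and 3 (7.14%) lower, with backgrounds of 12.2% and 13.4%. Of the 3 lower, *Atp6v0d2* passed the filter on low values only through the OGD group, and a filter at 1 FPKM left 2. At an adjusted p under 0.05 of any size, limma put 36 higher (85.7%, background 25.1%) and 6 lower (14.3%, background 24.7%). The OGD + A-485 libraries lay all above the OGD libraries in 36 of the 42 genes (background 28.5%) and all below them in 6 (background 28.3%). The median log2 fold change was 0.60, beside 0.01 over all genes. An exact permutation test of a single gene cannot go below p = 0.1 with 3 libraries against 3, so calls rest on the fit over all genes.

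Against control, OGD + A-485 had 34 of the 42 genes (81.0%) called higher and 1 (2.38%) lower, with backgrounds of 17.0% and 16.6%. The median log2 fold change was 0.91, beside 0.02 over all genes. The comparisons share libraries, so their values stand side by side and none supports another. *Ctsk* and *Lamp2* were called higher in all 3 comparisons, and 23 genes were called higher in both comparisons with A-485 and not with OGD. How many of all genes showed such joint patterns was not counted, so these counts only describe the list. *Ctsa*, *Mcoln1*, *Hexa*, *Naglu* and *Atp6v0a1* were called with OGD and still stood above control with A-485, without a call for A-485 against OGD. In limma on FPKM, *Ctse*, *Ctsl*, *Gaa* and *Atp6v1c1* were called in none. Quantile normalization left 28 called higher against control, without *Lgmn*, *Lamp1*, *Cd68*, *Grn*, *Tpp1* and *Atp6v1a*.

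**Figure D1:**
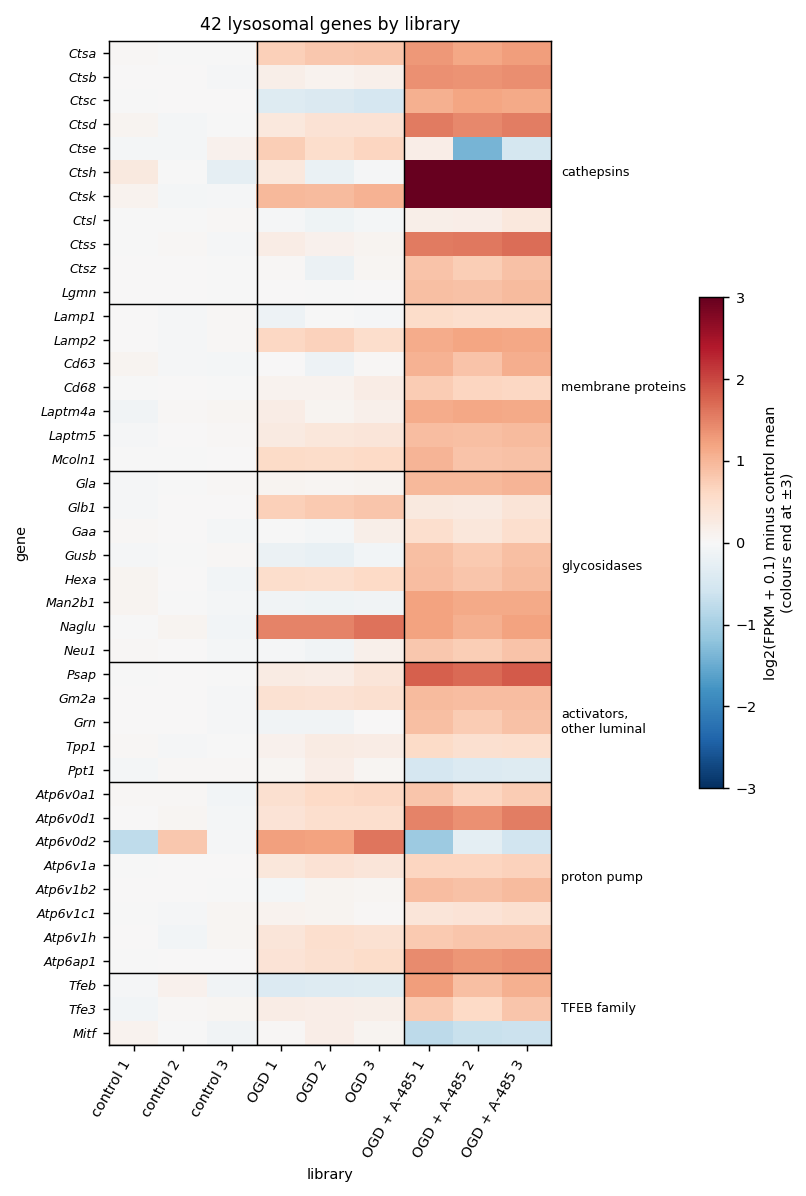
Heat map of log2(FPKM + 0.1) minus the control mean for the 42 genes (rows, by class) in the 9 libraries (columns), with colours ending at ±3. Each OGD + A-485 library lies above every OGD library in 36 of the rows, and Ctsh and Ctsk pass the end of the scale.

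The classes differed in how much they rose. The cathepsin class summed to 1849 ± 20.9 FPKM in control, 2075 ± 70.8 under OGD and 4300 ± 144 under OGD + A-485 (SD, n = 3). The activators and other luminal proteins summed to 526.1 ± 6.17, 583.8 ± 20.8 and 1254 ± 57.6 FPKM in the same order. In these 2 classes OGD + A-485 stood 2.07 and 2.15 times above OGD, and OGD stood 1.12 and 1.11 times above control. The membrane proteins summed to 695.8 ± 4.78, 751.4 ± 22.3 and 1166 ± 29.2 FPKM. The glycosidases summed to 320.5 ± 7.2, 408.3 ± 17.6 and 567.4 ± 22.2 FPKM, and the proton pump to 346.4 ± 1.93, 437.8 ± 12.2 and 688.6 ± 20.3 FPKM. These last 2 classes had the largest ratios of OGD to control, 1.27 and 1.26. The sums were not tested, and abundant genes weigh most in them. Counts of calls by class below stand beside backgrounds over all genes of 11.2% higher and 9.81% lower with OGD. With A-485 these backgrounds were 12.2% higher and 13.4% lower.

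**Figure D2:**
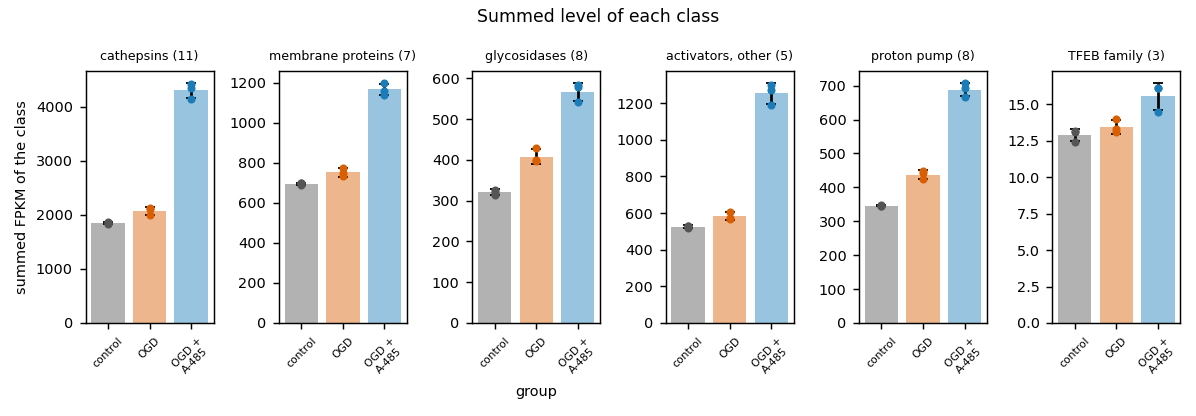
Summed FPKM of each class by group, with bars for means, whiskers for SD and points for the 3 libraries (each y axis starts at 0 and has its own scale, and panel titles give the number of genes). The cathepsin class goes from 2075 FPKM in OGD to 4300 under OGD + A-485.

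Cathepsins are the main lysosomal proteases, and legumain is an asparaginyl endopeptidase that processes several of them. With OGD 2 of the 11 genes were called higher, and with A-485 8 of the 11, and limma on FPKM called none lower in either comparison. *Ctsk*, a collagen-cleaving cathepsin best known from osteoclasts, lies at chr3:95499256-95509362 on the plus strand. It measured 26.3, 23.5 and 24 FPKM in control, 48.6, 47.9 and 50.6 under OGD and 477, 482 and 488 under OGD + A-485. The groups did not overlap, and the gene moved from rank 26 among the 42 by FPKM in control to rank 5 under OGD + A-485. Its log2 fold change was 0.99 ± 0.05 (SE) with OGD (limma, adjusted p = 1.3e-06) and 3.30 ± 0.05 with A-485 (limma, adjusted p = 1.8e-09), and the ratio of mean FPKM with A-485 was 9.84. The sum of 7 osteoclast markers was 33.3 to 33.6 FPKM in control, 39.4 to 40.6 under OGD and 15.9 to 17.1 under OGD + A-485. *Dcstamp*, the most abundant of them in control and OGD, averaged 17.2, 25.1 and 3.31 FPKM in the same order. *Tnfrsf11a* went against the sum, with averages of 2.93, 2.14 and 3.38 FPKM, and *Nfatc1* fell with OGD from 7.26 to 5.42 FPKM. *Acp5*, a phosphatase of osteoclasts, also went against the sum, with averages of 0.0123, 0 and 0.272 FPKM. It had 4 to 11 reads in each OGD + A-485 library and at most 1 in any control library. *Calcr*, the calcitonin receptor, was listed at 0.

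*Ctsh*, an aminopeptidase cathepsin at chr9:90054152-90076089 on the plus strand, was low without A-485. It measured 0.715, 0.562 and 0.453 FPKM in control, 0.733, 0.478 and 0.553 under OGD and 11.0, 10.7 and 10.8 under OGD + A-485. Control and OGD overlapped, and the OGD + A-485 libraries stood far above both. Its reads over the group numbered 112 in control, 105 under OGD and 2185 under OGD + A-485, a ratio of 18.5 for A-485 with a 95% interval of 15.2 to 22.7 that covers counting error only. The log2 fold change with A-485 was 4.01 ± 0.18 (limma, adjusted p = 4.4e-07).

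*Ctsc*, which activates the granule serine proteases of leukocytes, moved down and then up. It measured 24.2, 24.4 and 24.5 FPKM in control, 18.6, 17.9 and 17.1 under OGD and 51.2, 55.2 and 53.4 under OGD + A-485. The OGD libraries lay below all control libraries, with a log2 fold change of -0.44 ± 0.04 (limma, adjusted p = 4.5e-05) that fell short of the fold threshold. With A-485 it rose by 1.57 ± 0.04 (limma, adjusted p = 3.6e-08).

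*Ctsa*, the protective protein of lysosomal β-galactosidase and neuraminidase, measured 203, 199 and 197 FPKM in control, 330, 347 and 356 under OGD and 496, 449 and 475 under OGD + A-485. The 3 groups did not overlap, and the rise with OGD was 0.78 ± 0.05 on the log2 scale (limma, adjusted p = 5.0e-06). The change with A-485, 0.46 ± 0.05, missed the fold threshold and became a call at 0.503 with the median of neighbouring genes removed. Exons of *Neurl2* share 324 bases with *Ctsa* on the opposite strand, and the log2 fold change of *Neurl2* with OGD was 0.69. The sources used here do not state the strand setting of the counting, so reads in the shared bases cannot be told apart.

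The other cathepsins called with A-485 were *Ctsb*, *Ctsd*, *Ctss*, *Ctsz* and legumain (*Lgmn*), with ratios of mean FPKM to OGD of 2.34, 2.16, 2.77, 1.81 and 1.88. *Ctsd*, the main aspartic protease of lysosomes, went from 200.4 ± 8.89 FPKM in OGD to 433.2 ± 19.9 under OGD + A-485 (SD, n = 3). *Ctss*, a cathepsin of antigen-presenting cells, went from 137.4 ± 7.73 to 380.3 ± 16.9 FPKM and lies 17424 bases from *Ctsk* on chromosome 3 with no protein-coding gene between them. *Ctsz*, a carboxypeptidase, had the highest FPKM of the 42 in every group and went from 679.0 ± 60.3 to 1229 ± 69.0. *Ctsb* shares 774 exon bases with *Fdft1* on the opposite strand, whose log2 fold change with A-485 was -1.10.

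Among the cathepsins left uncalled, *Ctsl*, which like *Ctsb* is a broad cysteine protease, averaged 138.7 FPKM in control, 131.7 under OGD and 163.1 under OGD + A-485. Its log2 fold change with A-485 of 0.31 ± 0.05 became 0.70, past the threshold, when the median change of its neighbouring genes was removed. *Ctse*, an aspartic protease of endosomes, had 59, 90 and 40 reads over the 3 control, OGD and OGD + A-485 libraries. Its log2 fold change with A-485 was -1.21 ± 0.37 (limma, adjusted p = 0.024), and it was called lower by limma-voom (-1.57), under scaling to library totals (-1.26), with the median of neighbours removed (-1.32), without OGD + A-485 replicate 1 (-1.59) and at an adjusted p under 0.05 with the fold threshold.

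**Figure D3:**
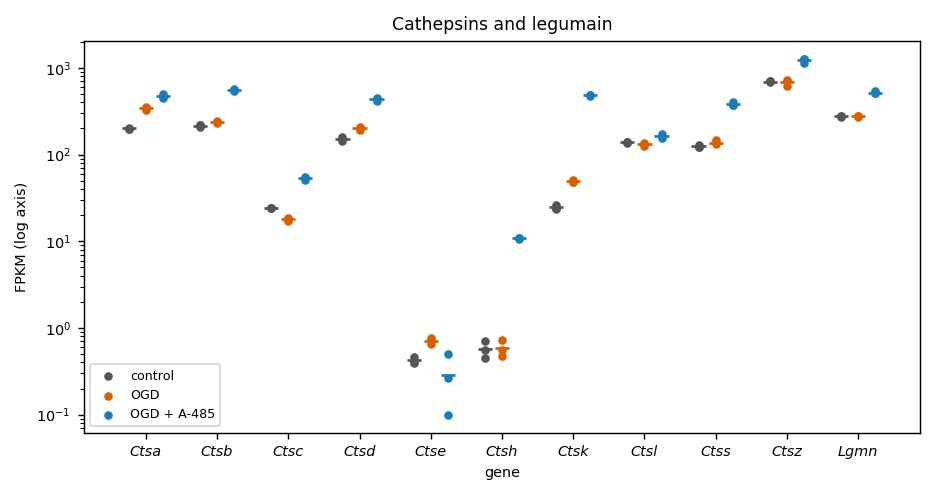
FPKM of the 11 genes of the cathepsin class on a log axis (points are libraries, short lines group means). Ctsk goes from about 49.0 FPKM in OGD to 482 under OGD + A-485, and Ctsh from 0.588 to 10.8.

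Among the 7 membrane proteins, 2 were called higher with OGD and 6 with A-485, and none lower. *Lamp2*, a heavily glycosylated protein that coats the lysosomal membrane, measured 24.3, 23.4 and 24.5 FPKM in control, 37.1, 38.9 and 34.8 under OGD and 52.4, 54.9 and 53.9 under OGD + A-485. It rose without overlap at both steps, by 0.61 ± 0.05 with OGD (limma, adjusted p = 1.1e-05) and by 0.54 ± 0.05 with A-485 (limma, adjusted p = 1.6e-05). The second of these calls was close to the fold threshold and was lost under quantile normalization (0.39), under scaling to library totals (0.48) and without OGD replicate 3 (0.499). *Mcoln1*, the calcium channel mucolipin 1, measured 6.12, 6.11 and 6.17 FPKM in control, 9.14, 9.03 and 9.35 under OGD and 12.6, 11.1 and 11.4 under OGD + A-485. It rose by 0.57 ± 0.05 with OGD (limma, adjusted p = 4.0e-05), a call lost at 0.47 when the median of neighbouring genes was removed.

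With A-485 the largest changes of the class were in *Cd63*, *Laptm4a* and *Laptm5*. *Cd63*, a tetraspanin of late endosomes and exosomes, measured 67.2, 61.9 and 60.8 FPKM in control, 64.0, 56.6 and 64.8 under OGD and 131, 114 and 135 under OGD + A-485. Control and OGD overlapped and OGD + A-485 lay above both, with a log2 fold change of 1.03 ± 0.08 (limma, adjusted p = 8.4e-06). *Laptm4a* measured 35.8, 39.1 and 39.9 FPKM in control, 44.8, 40.3 and 42.2 under OGD and 82.5, 85.2 and 84.8 under OGD + A-485, a rise with A-485 of 0.99 ± 0.05 (limma, adjusted p = 1.2e-06). *Laptm5*, a relative of *Laptm4a* found in blood cells, measured 75.5, 77.2 and 78.3 FPKM in control, 92.2, 96.8 and 98.8 under OGD and 146, 145 and 148 under OGD + A-485. It rose by 0.61 ± 0.04 with A-485 (limma, adjusted p = 2.1e-06), and by 0.47 under quantile normalization and 0.40 without the median of its neighbours, both short of the threshold. *Lamp1*, the second coat protein, went from 199.2 ± 9.36 in OGD to 298.9 ± 7.16 FPKM under OGD + A-485 and *Cd68*, a macrophage sialomucin, from 306.0 ± 14.8 to 444.9 ± 19.7 (SD, n = 3). Both were called with A-485, and neither was under quantile normalization (0.41 and 0.33), nor was *Cd68* under scaling to library totals (0.47).

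Of the 8 glycosidases 3 were called higher with OGD and 4 with A-485, and these were different genes. *Naglu*, the α-N-acetylglucosaminidase of heparan sulfate breakdown, lies at chr11:101070012-101077672 on the plus strand, 6293 bases from the pump gene *Atp6v0a1*. It measured 14.4, 15.4 and 13.6 FPKM in control, 40.5, 41.0 and 45 under OGD and 33.6, 30.6 and 33.5 under OGD + A-485. The OGD libraries were the highest and did not overlap the others, with log2 fold changes of 1.54 ± 0.06 with OGD (limma, adjusted p = 6.4e-07) and -0.37 ± 0.06 with A-485 (limma, adjusted p = 0.0011, short of the fold threshold). Of the 42 genes it had the largest called change with OGD, 2.92 times the control mean.

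*Glb1*, the lysosomal β-galactosidase, was also highest in OGD. It measured 27.9, 28.7 and 28.7 FPKM in control, 46.6, 49.2 and 50.4 under OGD and 34.8, 34.2 and 37.1 under OGD + A-485. It rose by 0.77 ± 0.04 with OGD (limma, adjusted p = 3.0e-06) and its log2 fold change with A-485 was -0.46 ± 0.04 (limma, adjusted p = 3.3e-05), which became a call under quantile normalization (-0.57) and under scaling to library totals (-0.53) and shrank to -0.17 with the median of its neighbours removed. *Hexa*, the α subunit of β-hexosaminidase, measured 108, 102 and 95.5 FPKM in control, 147, 144 and 153 under OGD and 194, 181 and 195 under OGD + A-485. It rose by 0.54 ± 0.05 with OGD (limma, adjusted p = 5.9e-05). This fell short of the threshold without control replicate 3 (0.496), under scaling to library totals (0.49) and without the median of its neighbours (0.45). The log2 fold change of *Hexa* with A-485 was 0.36 ± 0.05 and became a call at 0.84 with the median of its neighbours removed.

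*Man2b1*, *Gusb* and *Gla* had the largest rises of the class with A-485. *Man2b1*, the lysosomal α-mannosidase, measured 13.6, 12.8 and 12.4 FPKM in control, 12.1, 11.9 and 12.1 under OGD and 29.8, 28.7 and 28.6 under OGD + A-485, a log2 rise of 1.26 ± 0.04 (limma, adjusted p = 1.1e-07). *Gusb*, the β-glucuronidase, measured 77.0, 78.3 and 79.7 FPKM in control, 68.9, 67.5 and 74.2 under OGD and 146, 136 and 147 under OGD + A-485, a log2 rise of 1.03 ± 0.05 (limma, adjusted p = 5.2e-07). In both the OGD libraries lay below every control library and OGD + A-485 lay above. *Gla*, the α-galactosidase, measured 21.7, 22.3 and 23.0 FPKM in control, 23.7, 23.4 and 23.7 under OGD and 44.0, 44.2 and 45.5 under OGD + A-485, a log2 rise of 0.92 ± 0.03 (limma, adjusted p = 1.8e-07). *Neu1*, the sialidase, was called too, from 22.6 ± 2.06 to 39.2 ± 1.5 FPKM, while *Gaa*, the acid α-glucosidase, went from 40.8 ± 3.59 to 54.0 ± 3.58 FPKM without a call.

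Of the 5 activators and other luminal proteins, 0 were called in either direction with OGD, and 2 were called higher and 1 lower with A-485. *Psap*, the precursor of the saposins that help enzymes reach sphingolipids, measured 227, 229 and 226 FPKM in control, 271, 266 and 291 under OGD and 783, 739 and 818 under OGD + A-485. The groups did not overlap, and the log2 rise with A-485 was 1.5 ± 0.05 (limma, adjusted p = 1.3e-07), which brought *Psap* to rank 2 of the 42. *Grn*, progranulin, measured 190, 190 and 181 FPKM in control, 174, 173 and 187 under OGD and 350, 315 and 345 under OGD + A-485, a log2 rise of 0.92 ± 0.05 (limma, adjusted p = 1.9e-06).

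*Ppt1*, the palmitoyl-protein thioesterase, went the other way. It measured 46.3, 49.2 and 49.3 FPKM in control, 50, 55 and 50 under OGD and 34.0, 36.5 and 36.8 under OGD + A-485. The OGD + A-485 libraries lay below all others and the log2 fold change was -0.53 ± 0.05 (limma, adjusted p = 4.1e-05). The call was lost without OGD replicate 2 (-0.49) and without OGD + A-485 replicate 1 (-0.495), and *Ppt1* shares 129 exon bases with *Cap1*, a gene of 188 FPKM on the opposite strand whose log2 fold change was -0.25. *Gm2a*, the GM2 activator, and *Tpp1*, a tripeptidyl peptidase, went from 27.8 and 50.3 FPKM in OGD to 38.8 and 62.8 under OGD + A-485 on average and were called only against control. The call of *Tpp1* was lost under quantile normalization (0.39), under scaling to library totals (0.41) and without OGD + A-485 replicate 1 (0.49).

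**Figure D4:**
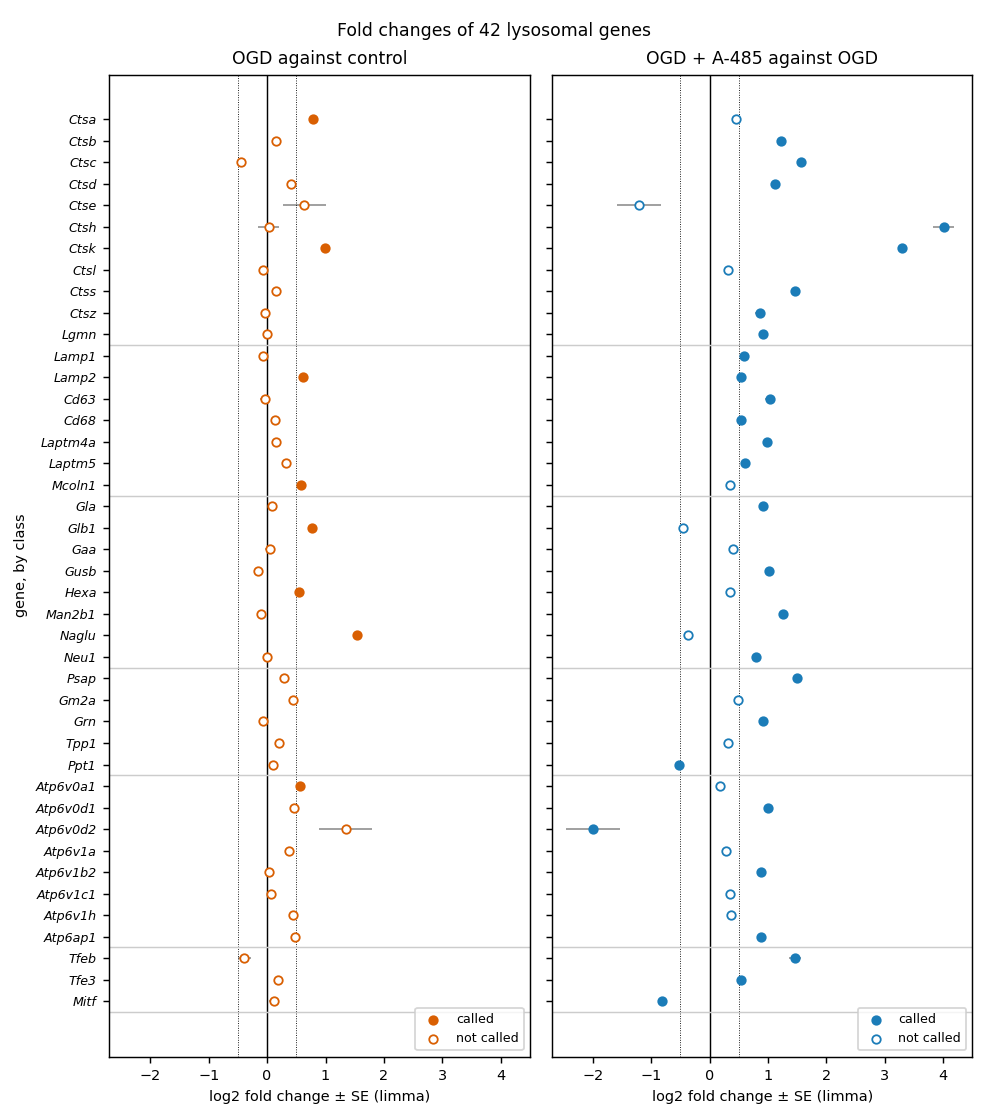
Log2 fold changes with SE from limma for the 42 genes by class, for OGD against control (left) and OGD + A-485 against OGD (right). Filled points were called and dotted lines mark the fold threshold of ±0.5. Of the filled points, 8 are right of 0 in the left panel, and 25 are right and 3 left of 0 in the right panel.

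The V-ATPase has a membrane sector, V0, and a cytosolic sector that splits ATP, V1. Of the 8 pump genes 1 was called higher with OGD, and 3 higher and 1 lower with A-485. The 1 call with OGD and the 1 lower call with A-485 were near the shares over all genes. At an adjusted p under 0.05 of any size, limma put 6 higher and 0 lower with OGD (backgrounds 22.5% and 22.8%), *Atp6v0d2* among them. The median log2 fold change with OGD was 0.45. *Atp6v0d1* (0.47) became a call at 0.60 with neighbours removed. *Atp6ap1* (0.48) became a call at 0.51 under quantile normalization and without OGD replicate 1, and fell to 0.34 with neighbours removed. *Atp6v0a1*, a V0 subunit, measured 17.0, 17.2 and 15.8 FPKM in control, 23.3, 25.3 and 25.8 under OGD and 29.5, 26.3 and 28.2 under OGD + A-485. It rose by 0.57 ± 0.06 with OGD (limma, adjusted p = 7.9e-05) without overlap.

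The d subunit of V0 has 2 isoforms, and they moved in opposite directions with A-485. *Atp6v0d1*, the widely expressed form, measured 72.5, 75.4 and 69.6 FPKM in control, 96.2, 102 and 102 under OGD and 202, 187 and 210 under OGD + A-485, a log2 rise of 0.99 ± 0.05 (limma, adjusted p = 1.1e-06). *Atp6v0d2*, the form of osteoclasts and some macrophages, measured 0.0551, 0.362 and 0.159 FPKM in control, 0.521, 0.509 and 0.707 under OGD and 0.0252, 0.117 and 0.0766 under OGD + A-485. The OGD libraries were the highest and did not overlap the others. The group means were 0.192, 0.579 and 0.0728 FPKM in control, OGD and OGD + A-485. The gene therefore passed the filter of 0.2 FPKM only through the OGD group, and its changes are not independent of that filter. With OGD the log2 fold change, 1.35 ± 0.46 (limma, adjusted p = 0.040), became a call in limma-voom (1.83) and without control replicate 2 (1.75). These are 23, 63 and 9 reads over the 3 libraries of each group, and the ratio of OGD + A-485 to OGD was 0.127 with a 95% counting interval of 0.0555 to 0.257. The log2 fold change with A-485 was -1.998 ± 0.46 (limma, adjusted p = 0.0058). Of the 7 osteoclast markers 5 were tested, and with A-485 3 were called lower (*Oscar*, *Ocstamp* and *Dcstamp*), 1 higher (*Tnfrsf11a*, from 2.14 to 3.38 FPKM) and 1 was not called (*Nfatc1*, from 5.42 to 5.39 FPKM). *Dcstamp*, a fusion protein of osteoclasts and macrophages and the most abundant of these markers in control and OGD, went from 17.2 FPKM in control to 25.1 under OGD and 3.31 under OGD + A-485 on average, and the part of these markers in the result was not tested.

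Of the V1 genes, *Atp6v1b2*, a subunit of the ATP-splitting ring, measured 59.9, 60.3 and 59.5 FPKM in control, 57.9, 63.6 and 62.5 under OGD and 114, 110 and 116 under OGD + A-485. The first 2 groups overlapped, and the log2 rise with A-485 was 0.88 ± 0.04 (limma, adjusted p = 6.0e-07). *Atp6ap1*, an accessory protein of pump assembly, measured 42.9, 43.1 and 43.1 FPKM in control, 57.5, 59.7 and 63.2 under OGD and 115, 108 and 111 under OGD + A-485. Its groups did not overlap, and the log2 rise with A-485 was 0.88 ± 0.04 (limma, adjusted p = 6.0e-07). *Atp6v1a* and *Atp6v1h* had log2 fold changes of 0.38 and 0.44 with OGD and 0.29 and 0.37 with A-485, and were called only against control. *Atp6v1c1* was 41.5, 43.7 and 55.5 FPKM on average and was not called.

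Of the 3 TFEB family genes, limma called none with OGD and all with A-485, *Tfeb* and *Tfe3* higher and *Mitf* lower. *Tfeb*, at chr17:47737030-47792419 on the plus strand, measured 2.17, 2.46 and 2.08 FPKM in control, 1.65, 1.68 and 1.71 under OGD and 5.47, 4.25 and 4.76 under OGD + A-485. OGD lay below control and OGD + A-485 above both, with log2 fold changes of -0.39 ± 0.11 (limma, adjusted p = 0.017, short of the fold threshold) and 1.46 ± 0.11 (limma, adjusted p = 7.9e-06). *Tfe3*, at chrX:7762560-7775202 on the plus strand, measured 3.68, 4.04 and 4.06 FPKM in control, 4.56, 4.51 and 4.44 under OGD and 6.79, 5.99 and 7.04 under OGD + A-485. Its rise with A-485 of 0.54 ± 0.08 (limma, adjusted p = 3.3e-04) was lost as a call with a pseudocount of 1 (0.46), under scaling to library totals (0.48) and without OGD + A-485 replicate 3 (0.49).

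*Mitf*, at chr6:97807052-98021349 on the plus strand, went down. It measured 7.24, 6.69 and 6.30 FPKM in control, 6.88, 7.80 and 7.17 under OGD and 3.88, 4.22 and 4.26 under OGD + A-485. Control and OGD overlapped, the OGD + A-485 libraries lay below both, and the log2 fold change with A-485 was -0.81 ± 0.07 (limma, adjusted p = 2.9e-05). In control *Mitf* had the highest FPKM of the 3 family genes and under OGD + A-485 the lowest. The sum of the family was 12.9 ± 0.407, 13.5 ± 0.469 and 15.6 ± 0.946 FPKM in control, OGD and OGD + A-485 (SD, n = 3). These are transcript levels, and the localization of the factors was not measured here.

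**Figure D5:**
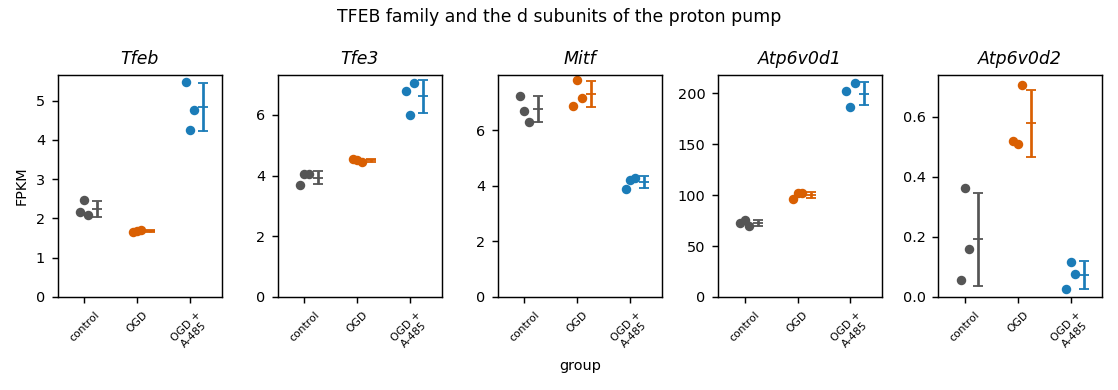
FPKM of the TFEB family genes and the 2 d-subunit genes of the proton pump by group (points are libraries, whiskers mean ± SD of 3, each y axis starts at 0 and has its own scale). With A-485 Tfeb, Tfe3 and Atp6v0d1 lie above OGD, and Mitf and Atp6v0d2 below it.

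The 12 genes with CACGTG in the promoter window held 4 of the calls with OGD and 5 of those with A-485. The 23 genes whose window had none held 4 with OGD, and 17 higher and 2 lower with A-485. Median log2 fold changes were 0.39 with OGD and 0.43 with A-485 for the first, and 0.14 and 0.86 for the second. All 6 genes with TCACGTGA were called higher under OGD + A-485 against control, 2 with OGD and 3 with A-485 against OGD. The shares over all genes were 11.2% higher and 9.81% lower with OGD, and 12.2% and 13.4% with A-485 against OGD. In the comparison of OGD + A-485 with control, 9 of the 12 genes with CACGTG were called higher. Of the 23 without it, 21 were called higher and 1 lower, and the shares over all genes were 17.0% higher and 16.6% lower. These counts are descriptions, and 7 of the 42 genes had no window.

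A wider list of 134 related genes, of which 118 could be tested, had 20 called higher and 5 lower with OGD, and 52 higher and 8 lower with A-485. Over all genes tested 11.2% were called higher and 9.81% lower with OGD, and 12.2% and 13.4% with A-485. These shares are the background for each related list below. Of 36 tested further hydrolases 11 were called higher and 0 lower with OGD, and 15 higher and 1 lower with A-485. *Hyal1*, a hyaluronidase, averaged 4.61 FPKM in control, 15.5 under OGD and 14.9 under OGD + A-485. *Ctsf*, another cysteine cathepsin, measured 3.11, 2.38 and 2.75 FPKM in control, 3.34, 2.18 and 3.64 under OGD and 49.8, 43.8 and 48.2 under OGD + A-485. Control and OGD overlapped, and the log2 rise of *Ctsf* with A-485 was 3.94 ± 0.18 (limma, adjusted p = 4.6e-07).

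Of 14 sorting genes, which bring hydrolases to the lysosome, 1 was called higher and 2 lower with OGD and 5 higher with A-485. The calls with OGD were near the shares over all genes. *Igf2r*, the cation-independent mannose 6-phosphate receptor, measured 2.45, 2.46 and 2.39 FPKM in control, 3.01, 3.84 and 3.55 under OGD and 36.7, 34.7 and 34.3 under OGD + A-485. The groups did not overlap, and the log2 rise with A-485 was 3.31 ± 0.08 (limma, adjusted p = 2.8e-08). *Nagpa*, the enzyme that uncovers the mannose 6-phosphate tag, averaged 28.9, 19.9 and 45.7 FPKM and was called lower with OGD and higher with A-485.

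Of 30 further membrane and transport genes 5 were called higher and 3 lower with OGD, and 15 higher and 2 lower with A-485. *Gpnmb*, a glycoprotein of phagocytes and melanosomes, averaged 202, 197 and 600 FPKM, and *Scarb2*, the receptor that sorts glucocerebrosidase, 8.74, 5.53 and 15.8 FPKM in control, OGD and OGD + A-485. Of 16 further genes of the pump, which are subunits and factors linked to it, 1 was called higher with OGD, and 8 higher and 2 lower with A-485. The 2 lower were *Dmxl1* and *Dmxl2*, which are not subunits, and not all of the 8 higher are subunits. *Tcirg1*, the a3 subunit of V0, went from 35.3 FPKM in OGD to 68.7 under OGD + A-485.

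Of 15 genes that control TFEB or belong to its family, 0 were called with OGD, and 6 were called higher and 1 lower with A-485. *Flcn* and *Fnip2* form a complex with GTPase-activating function for the Rag GTPases and went from 16.0 and 24.5 FPKM in OGD to 32.5 and 67.4 under OGD + A-485. *Rragd*, a Rag GTPase that brings TFEB to mTORC1, had no read in control and OGD libraries and 539 over the 3 OGD + A-485 libraries (2.20, 2.44 and 2.33 FPKM), at least 159.6-fold higher than OGD against a floor of 3 reads over the group. Of 7 tested cathepsin inhibitors 2 were called higher with OGD, and 3 higher and 2 lower with A-485. *Cst3*, cystatin C, which inhibits cysteine cathepsins outside cells, averaged 123, 107 and 191 FPKM. *Serpinb1a*, a serpin of serine proteases, averaged 6.26, 9.43 and 0.240 FPKM.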

How the data were processed

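RNA of BV2 cells was sequenced in 9 libraries, 3 per group, and libraries were assigned to groups by the sample labels. FPKM values of 54532 genes, beside their lengths and positions, were deposited (build GRCm38 per the labels). Reads were counted by the authors on genes with featureCounts 1.5.0, and FPKM was computed by them from gene length and read count. The aligner and strand setting are not given in the sources used here. The deposited FPKM gave whole reads for all values within a tolerance of 0.01, so the reads of low genes and the depth could be recovered. The coordinates matched those of the GENCODE M21 annotation for all 42 genes.

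From these values, the 16123 genes averaging 0.2 FPKM or more were taken as log2(FPKM + 0.1) and fitted by limma 3.58.1 (R 4.3.3) over all 9 libraries, with group means and a trended prior variance, which replaces the authors' count test. Calls required p under 0.01 and a log2 fold change beyond 0.5 in either direction, the thresholds of the study, and adjusted p-values are Benjamini-Hochberg over all genes tested. Promoter windows were taken from RefSeq (GRCm38.p6). Python 3.11.15 with pandas 2.3.3 and scipy 1.17.1 was used for the remaining steps. The fits were tested on simulated data.

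The 42 genes, the related genes and the marker lists were chosen with earlier results of these data known. Named are, by class and comparison, up to 3 called genes with the largest change in each direction, all TFEB family genes and both d-subunit genes, with the others by their means. The pump, hydrolase and other related lists are given as counts with at most 3 called genes named, and *P2ry12* and the osteoclast markers were named from the marker lists after their values were seen.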

Additional observations from a re-analysis of the deposited data

How the results depend on the processing

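The directions and counts of calls were recomputed under a pseudocount of 1 or 0.01, a filter at 1 FPKM or none, quantile normalization, scaling to library totals, only the groups compared, no trend, limma-voom on recovered reads, removal of the median change of 50 neighbouring genes, adjusted p-values and each library left out. With an adjusted p under 0.05 and no fold threshold, 22 genes were higher and 3 lower with OGD, 6 lower with A-485 against OGD and 2 lower against control. With neighbours removed, 1 gene, *Ctsc*, was lower with OGD. Scaling to library totals gave 5 lower with A-485 against OGD and 2 lower against control, and quantile normalization 2 lower against control. The called genes higher with A-485 against OGD numbered 21 under quantile normalization and 22 under library totals. Leaving out 1 library gave 7 to 9 higher and 0 lower with OGD, 24 to 25 higher and 2 to 3 lower with A-485 against OGD, and 32 to 35 higher and 1 lower against control. The replicate block left the counts at 8 and 0, 25 and 3, and 34 and 1 and changed none of these counts. Same-numbered libraries showed no shared deviation (correlations of -0.125 to 0.072, mean -0.030). Over all these settings 13 genes changed direction with OGD, 0 of them called, and 0 genes did so in either comparison with A-485. Among genes called under some setting these were *Ctsb* (-0.12), *Cd68* (-0.18) and *Psap* (-0.0295) under quantile normalization and *Ctss* (-0.0047), *Cd68* (-0.0247) and *Gusb* (0.0170) with neighbours removed. The cause was not tested. Members' median log2 fold change with A-485 was 0.53 under both scalings. Depth limits *Atp6v0d2* and *Ctse*, which had at most 90 reads in any group.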
